A study of Mus musculus with 6 samples.

Results

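Mesoderm explants treated with YZ9 were compared with untreated explants across the transcriptome. The comparison takes 4 of the 6 libraries of the series, 2 YZ9 and 2 control, and 15003 of the 46078 genes in the deposited table, those with at least 10 counts in at least 2 of the 4 libraries. Mesoderm was dissected from E7.25 mouse embryos after removal of the extraembryonic tissue and a trypsin and pancreatin digest, and was plated on fibronectin. Explants attached for 3 to 4 h in medium with rat serum, and polyadenylated RNA was sequenced after 27 h of culture by the growth protocol or 24 h by the series description. The YZ9 group had received 10 µM YZ9 for 16 h. The labels of the other group say control and no more, so it is not known if its medium held the solvent. The remaining 2 libraries, from explants given 1 µM of an inhibitor called PD for 16 h, entered the fit and served for comparison. The labels give all 6 samples as wild type, and the series description names the TCF/Lef:H2B-GFP reporter strain for all of them. How many embryos or explants went into a library is not stated.

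YZ9 is a small molecule that inhibits PFKFB3, a kinase and phosphatase that sets the level of fructose 2,6-bisphosphate. That metabolite activates phosphofructokinase, the committed step of glycolysis, so that cells with active PFKFB3 pass more glucose down the pathway. At gastrulation, cells of the epiblast go through the primitive streak, lose E-cadherin junctions and spread as mesoderm, the source of blood, vessels, heart and connective tissue. The question that the comparison addresses is what the transcriptome of mesoderm looks like when this step of glucose metabolism is inhibited.

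Total counts were 27231057 and 27529450 in controls and 21253194 and 27810161 with YZ9, and 20112 to 20933 genes had a count in the 6 libraries. The sex read from the counts differed within the YZ9 group. Xist had 3956 counts in YZ9 replicate 2 and between 0 and 1 in YZ9 replicate 1 and both controls, and the Y-linked genes summed to 0 counts in YZ9 replicate 2, to 4286 in replicate 1, and to 8875 and 9703 in controls. YZ9 replicate 2 was thus female and the other 3 were male, so a part of each group difference cannot be told apart from sex. The value of each YZ9 library is given for this reason. By the same counts PD replicate 1 was male and PD replicate 2 female (Xist 0 and 2119, Y-linked genes 9736 and 3). No label names the embryo or culture behind a library, so p-values measure only the spread between these libraries. In controls that spread may be technical, whereas the 2 YZ9 libraries differed in sex and so came from different embryos. The mitochondrial chromosome took 1.08% and 1.13% of counts in controls and 0.943% and 0.922% with YZ9. Of 15 mesoderm markers, 11 passed the count filter. The 15 summed to 1952 and 1509 CPM (CPM scales counts to the effective library size) in controls and 1447 and 1399 with YZ9. Vim was the largest member, at 1281 and 1078 CPM in controls and 850 and 546 with YZ9, and the others went in both directions. Early streak and presomitic markers were at or near 0 in all 4 libraries: Msgn1 had 0 counts, T up to 4, Tbx6 up to 3 and Mesp1 up to 6.

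A single gene passed the test of edgeR, a quasi-likelihood test with Benjamini-Hochberg adjustment and a threshold of 0.05: Tubb1 fell, and 0 genes rose (0.00667% of genes tested). The count rested on the setting, with 0 calls in each fit that left out 1 control or 1 YZ9 library, 122 with sex as a covariate and 556 with no filter on low counts. At an unadjusted p under 0.05 there were 652 higher genes (4.35%) and 1078 lower genes (7.19%). DESeq2, another count test, called 158 genes higher (1.05%) and 368 lower (2.45%), 526 in all (3.51%), and 180 higher and 406 lower genes stand in the authors' deposited table. By level alone, 703 genes (4.69%) were higher in both YZ9 libraries than in both controls with means at least 2-fold apart, and 1065 (7.10%) were lower in the same way; these genes are called separated below. The plot of level against difference shows this excess below 0. Genes other than Tubb1 did not pass edgeR. On simulated data of this design, drawn with the spread that edgeR estimated, DESeq2 held more false calls than its threshold states. There edgeR stayed near its own threshold but missed most of the 2-fold changes, which DESeq2 recovered more often. A single edgeR call therefore does not mean that only a single gene differed. Genes named as DESeq2 calls are given with their library values and are not equal in weight to the edgeR call.

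**Figure D1:**
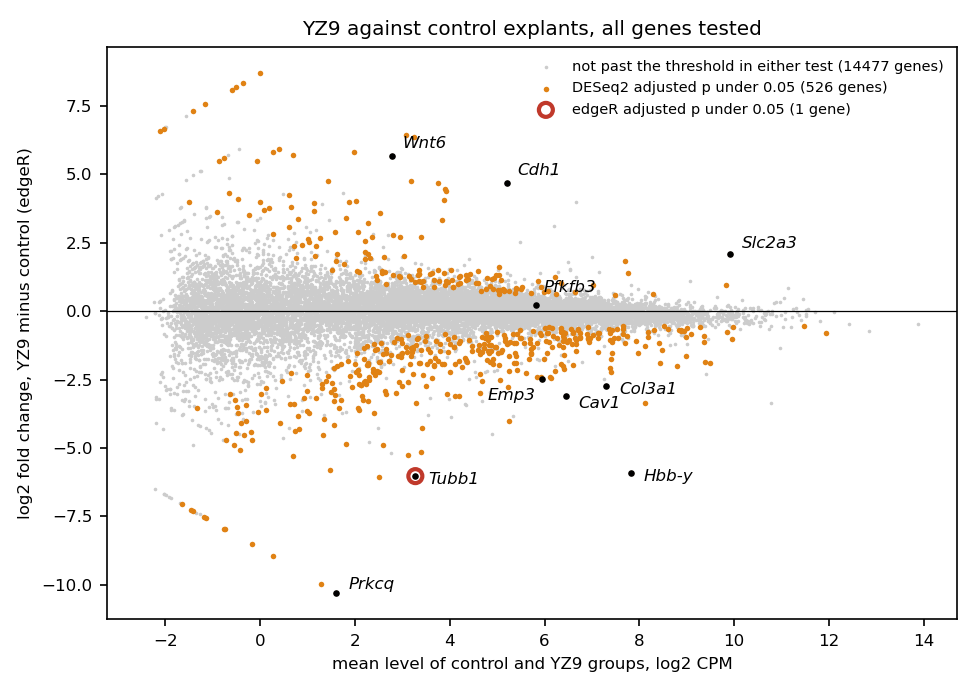
Log2 fold change of YZ9 minus control (edgeR, vertical axis) against the mean level of the 2 groups (log2 CPM, horizontal axis) for the 15003 genes tested; orange points passed DESeq2 (526 genes) and the red ring marks Tubb1, the single gene past edgeR. More orange points lie below 0 (368) than above (158), and Pfkfb3 lies near 0.

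The gene that fell, Tubb1, is one of platelets and their precursors. Megakaryocytes are the cells that shed platelets; their first wave arises in the yolk sac together with primitive red cells. Tubb1 (ENSMUSG00000016255; GRCm38 chromosome 2, 174450695 to 174457882) encodes the beta-tubulin of the platelet's marginal band. It was at 17.3 and 20.8 CPM in controls and 0.268 and 0.303 CPM with YZ9, a log2 fold change of -6.03 (SE 0.36, edgeR adjusted p = 0.0206). The groups lay far apart, with PD libraries between them at 2.55 and 2.51 CPM. Tubb1 passed under 16 of 18 alternatives, and it did not pass without YZ9 replicate 1 (-5.94, adjusted p = 0.101) or without YZ9 replicate 2 (-6.12, adjusted p = 0.297), where the size was kept and the remaining YZ9 library stood alone; without either control it had too few libraries with counts to be tested.

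Some other genes known from platelets also lay lower in both YZ9 libraries than in both controls; they are single genes, not a counted list. Gp5, a subunit of the platelet receptor for von Willebrand factor, had 132 and 126 control counts and 0 in each YZ9 library (DESeq2 adjusted p = 2.36e-05). Taking 3 counts over the YZ9 group as the floor, it was at least 83.9-fold lower. Gp9, another subunit of that receptor, had 39 and 51 control counts, and 0 and 7 with YZ9 (DESeq2 adjusted p = 0.0504). Pf4, the platelet chemokine, was at 2.28 and 8.86 CPM in controls and 0.0893 and 0.505 with YZ9 (log2 fold change -4.15, SE 1.10, DESeq2 adjusted p = 0.00532). The controls differed among themselves in Pf4 more than in Tubb1, and both YZ9 libraries were below both. Itga2b, the alpha subunit of the fibrinogen receptor, was at 18.1 and 21.5 CPM against 5.85 and 6.23 (log2 fold change -1.71, SE 0.46, DESeq2 adjusted p = 0.0187). P2rx1, the ATP-gated channel of platelets, was at 9.62 and 7.84 CPM in controls and 1.07 and 0.741 with YZ9 (-3.27, SE 0.46, DESeq2 adjusted p = 6.81e-08). Rab27b, a GTPase of platelet dense granules, was at 48.5 and 95.8 CPM against 2.81 and 6.09 (-4.01, SE 0.60, DESeq2 adjusted p = 4.71e-11). Prkcq, a protein kinase C that platelets and T cells use, had 114 and 210 control counts and 0 with YZ9, at least 105-fold lower (DESeq2 adjusted p = 2.55e-07). Gp5, P2rx1, Rab27b and Prkcq were chosen after their values were seen.

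The start regions of the platelet genes that carry this difference are shown so that a reader can look for shared letters; GATA and ETS factors are known to drive such genes in megakaryocytes. The 250 bases before the RefSeq start (GRCm38.p6) are given in the direction of the gene, with the ETS core AGGAAG or its reverse complement CTTCCT in capitals.
Tubb1, chr2:174450345-174450594 (plus strand): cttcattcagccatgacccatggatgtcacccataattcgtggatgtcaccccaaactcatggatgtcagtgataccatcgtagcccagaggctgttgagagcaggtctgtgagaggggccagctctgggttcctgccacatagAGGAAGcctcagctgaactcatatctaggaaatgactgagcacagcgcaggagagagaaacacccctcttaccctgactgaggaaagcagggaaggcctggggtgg
Gp9, chr6:87777820-87778069 (plus strand): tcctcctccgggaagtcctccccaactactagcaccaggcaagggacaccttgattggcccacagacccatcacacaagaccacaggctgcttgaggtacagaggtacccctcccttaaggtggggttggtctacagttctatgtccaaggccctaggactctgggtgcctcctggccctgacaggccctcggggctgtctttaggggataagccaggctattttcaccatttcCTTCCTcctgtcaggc
Pf4, chr5:90772185-90772434 (plus strand): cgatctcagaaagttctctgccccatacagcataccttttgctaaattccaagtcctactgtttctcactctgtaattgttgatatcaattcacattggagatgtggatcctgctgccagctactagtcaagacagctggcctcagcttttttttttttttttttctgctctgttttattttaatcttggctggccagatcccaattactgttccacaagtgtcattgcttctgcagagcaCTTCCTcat
Itga2b, chr11:102469884-102470133 (minus strand): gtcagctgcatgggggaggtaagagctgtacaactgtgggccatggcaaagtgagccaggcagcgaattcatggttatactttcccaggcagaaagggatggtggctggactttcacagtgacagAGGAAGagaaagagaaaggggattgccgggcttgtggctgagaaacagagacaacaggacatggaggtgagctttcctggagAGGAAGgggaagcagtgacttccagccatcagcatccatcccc
These letters are common. They stood in 9 of the 24 windows of the blood list's tested genes (37.5%). The share was 27.8% for the windows of genes tested and 29.5% for all 32851 windows searched on both strands. The match describes the sequence, and whether a factor binds there was not tested.

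Red-cell genes were lower as well, with a wide spread inside each group. Of 25 tested genes of a blood list of 27, 24 had a log2 fold change below 0, 15 were separated and lower (7.10% of all genes tested were) and 0 separated and higher (4.69%). The median was -1.71, and that of all genes -0.000929; it became -3.56 without YZ9 replicate 2 and -1.10 without control replicate 2. DESeq2 called 6 lower (2.45% of all genes tested) and 0 higher (1.05%), and edgeR called Tubb1 (0.00667%). Hbb-y, an embryonic beta-like globin, was at 230 and 662 CPM in controls and 1.21 and 13.3 with YZ9 (log2 fold change -5.92, SE 1.41, DESeq2 adjusted p = 0.00271). Hba-x, the embryonic zeta-like globin, was at 1475 and 4945 CPM in controls, and at 2.77 in YZ9 replicate 1 against 627 in replicate 2 (-3.35, SE 2.06, DESeq2 adjusted p = 0.578). Hbb-bh1, the other early beta-like globin, was at 662 and 1603 CPM against 14.2 and 444 (-2.30, SE 1.65). Both globins were lower in each YZ9 library than in each control, and the 2 YZ9 libraries differed from each other by more than the 2 controls did.

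The factors that direct red-cell genes had the same split. Gata1, the master factor of red cells and megakaryocytes, was at 22.8 and 40.3 CPM in controls and 0.938 and 16.2 with YZ9. Klf1, which switches on globin genes, was at 16.9 and 34.0 CPM against 0.402 and 19.1, so its groups overlapped. Upstream blood factors differed less: Runx1, needed for definitive blood, was at 96.9 and 109 CPM against 66.1 and 65.0, and Tal1, an early blood and vessel factor, at 7.82 and 14.7 against 4.02 and 13.5. Lyl1, a relative of Tal1, was at 11.4 and 12.3 CPM in controls and 3.84 and 3.87 with YZ9 (-1.62, SE 0.27, DESeq2 adjusted p = 1.23e-05), and its exons overlap those of Nfix on the other strand, which this library type does not resolve. Spi1, the factor of myeloid cells, was at 3.33 and 5.29 CPM against 0.849 and 0.404 (-2.79, SE 0.88, DESeq2 adjusted p = 0.0460).

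The blood list as a whole summed to 2867 and 8163 CPM in controls and 164 and 1432 with YZ9. In PD libraries the sum was 628 and 7543, which overlaps the controls. Replicate 1 had the lower sum in each group. Explants are bulk samples, so fewer blood cells and less RNA per blood cell cannot be told apart, and the number of blood cells left on each explant was not measured.

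Vessel genes went in both directions. Among 28 endothelial genes the median log2 fold change was -0.05 (-0.18 to 0.071 over the alternative settings), DESeq2 called 2 higher (1.05% of all genes tested) and 2 lower (2.45%). With 2 members separated and higher and 3 lower, the separated shares lay near those of all genes (4.69% and 7.10%). Cldn5, a tight junction protein of vessels, was at 1.35 and 2.33 CPM in controls and 7.82 and 7.95 with YZ9 (2.10, SE 0.39, DESeq2 adjusted p = 2.08e-04). Kdr, the VEGF receptor of vessel and blood precursors, was at 56.0 and 44.9 CPM against 90.1 and 76.5 (0.72, SE 0.18, DESeq2 adjusted p = 0.0321). Pecam1, an adhesion protein that vessels, platelets and leukocytes share, was at 49.8 and 60.2 CPM against 27.5 and 34.4 (-0.83, SE 0.20, DESeq2 adjusted p = 0.0184).

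Among genes outside the blood list, those with the smallest p-values included membrane, caveolar and WNT genes. The rule took the 8 higher and the 8 lower genes of smallest p, with groups that do not overlap by construction. The lower genes after Tubb1 were Emp3, Epha3, Serpinb6b, Cd59a, Slitrk4, Cav1 and Ripply1, each with an edgeR adjusted p of 0.116 and a DESeq2 adjusted p between 2.89e-16 and 1.14e-10. Cav1 (ENSMUSG00000007655; chromosome 6, 17306335 to 17341452), the coat protein of caveolae, the flask-shaped pits of the cell membrane, was at 148 and 164 CPM in controls and 24.2 and 12.3 with YZ9 (-3.10, SE 0.35). Its partner Cav2 was at 14.1 and 22.1 CPM against 4.65 and 2.56 (-2.33, SE 0.40, DESeq2 adjusted p = 1.38e-05), and Cavin1, which stabilises the coat, at 957 and 773 against 485 and 433 (-0.91, SE 0.18, DESeq2 adjusted p = 0.00434). Cav2 and Cavin1 were chosen after their values were seen. All 3 caveolar genes were lower in both YZ9 libraries than in both controls.

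Emp3, a membrane protein of mesenchymal cells (chromosome 7, 45918023 to 45921404), was at 99.8 and 109 CPM in controls and 21.6 and 16.1 with YZ9 (-2.47, SE 0.23). Epha3, an ephrin receptor that guides migrating cells (chromosome 16, 63543534 to 63864175), was at 11.7 and 7.84 CPM against 0.670 and 0.808 (-3.71, SE 0.37). Ripply1 (chromosome X, 139779549 to 139782353), which represses T-box targets at the somite border, was at 21.5 and 20.7 CPM against 5.85 and 6.09 (-1.82, SE 0.21). Cd59a, a membrane inhibitor of complement, was at 187 and 223 CPM against 74.8 and 70.5 (-1.50, SE 0.16). Serpinb6b, a protease inhibitor, was at 42.7 and 45.6 CPM against 5.54 and 9.29 (-2.57, SE 0.27), and Slitrk4, a leucine-rich membrane protein, at 62.4 and 53.8 against 20.01 and 16.8 (-1.66, SE 0.18). That both YZ9 libraries lay below both controls in these genes follows from the naming rule.

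The higher genes were Wnt6, Peg10, Add3, Utf1, Dynlt1a, Acaa1a, Slc2a3 and Arhgap8, with edgeR adjusted p from 0.116 to 0.135. Wnt6 (ENSMUSG00000033227; chromosome 1, 74771892 to 74785322), a WNT ligand that epithelia secrete, was at 0.262 and 0.263 CPM in controls and 16.7 and 10.4 with YZ9 (5.67, SE 0.54, DESeq2 adjusted p = 2.89e-16). Utf1, a chromatin factor of the epiblast, had 0 control counts, and 41 and 64 with YZ9, at least 35.9-fold higher with 3 counts over the controls as the floor (DESeq2 adjusted p = 1.82e-04). Peg10, an imprinted gene of the placenta, was at 138 and 98.9 CPM against 291 and 338 (1.41, SE 0.19), and Add3, an adducin that links actin to spectrin, at 38.3 and 35.5 against 74.8 and 84.8 (1.11, SE 0.16). Acaa1a, a thiolase of peroxisomal fatty acid oxidation, was at 19.2 and 17.7 CPM against 44.7 and 41.2 (1.22, SE 0.18), with exons that overlap Myd88 on the other strand. Dynlt1a, a dynein light chain gene, was at 0.561 and 0.638 CPM against 6.39 and 6.53 (3.42, SE 0.51); near-identical copies of it exist, so its reads are uncertain. Arhgap8, a GTPase-activating protein, was at 1.50 and 1.24 CPM against 11.3 and 6.53 (2.70, SE 0.42).

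**Figure D2:**
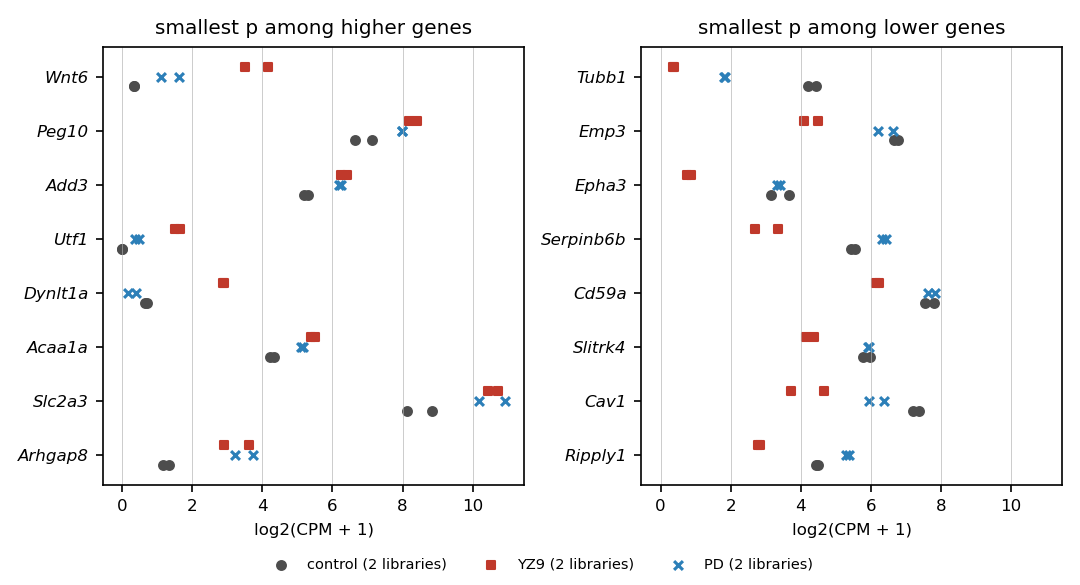
Level of the 8 higher and 8 lower genes with the smallest p in YZ9 against control, as log2(CPM + 1), 1 mark per library: grey circles control, red squares YZ9, blue crosses PD. The YZ9 and control marks do not overlap because the naming rule asked for this; the PD marks lie near the controls in Emp3, Epha3, Cd59a and Slitrk4 and near YZ9 in Slc2a3 and Arhgap8.

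Some of these differences set YZ9 apart from PD as well. The direct test of YZ9 against PD in the same fit called 19 genes (0.127% of genes tested), 12 lower and 7 higher with YZ9. Among the 12 were Tubb1, Emp3, Epha3, Serpinb6b, Cd59a, Slitrk4 and Ripply1. These genes had been named for their low YZ9 values. Both tests use the same YZ9 libraries and a shared estimate of the spread, so the second is not independent of the first. Emp3 was at 72.5 and 98.0 CPM with PD (YZ9 minus PD -2.18, SE 0.23, edgeR adjusted p = 0.0463), Epha3 at 9.02 and 9.58 (-3.64, SE 0.37, adjusted p = 0.0424) and Cd59a at 228 and 200 (-1.56, SE 0.16, adjusted p = 0.0424). Ripply1 was at 40.9 and 38.6 CPM with PD, above the controls (-2.73, SE 0.21, adjusted p = 0.0280). The 7 higher genes were Spred1, Spry2, Spry4, Egr1, Ccnd1, Id1 and Ppp1r14c, of which Spred1, Spry2 and Spry4 restrain the RAS to ERK pathway. Spred1 was at 52.8 and 42.3 CPM with YZ9, 52.9 and 49.8 in controls and 6.93 and 6.87 with PD (YZ9 minus PD 2.78, SE 0.21, adjusted p = 0.0280). Nkain4 and Vnn1 were lower with YZ9 than with PD, at -2.38 and -2.16, while their YZ9 values lay near the controls (log2 fold change -0.07 and 0.40).

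No gene of the inhibited step passed edgeR or DESeq2. Pfkfb3, the gene of the enzyme that YZ9 is known to inhibit, was at 70.4 and 33.1 CPM in controls and 91.6 and 29.7 with YZ9 (0.23, SE 0.59, edgeR adjusted p = 0.912). The spread between libraries of a group exceeded the difference between groups, and an mRNA level does not measure the activity of the enzyme. Pfkfb1, at 21.3 and 19.8 CPM against 16.8 and 22.2, and Pfkfb4, at 7.07 and 4.16 against 4.29 and 6.06, had groups that overlapped. Pfkfb2, the isoform with the fewest counts, was at 1.16 and 2.03 CPM against 2.99 and 2.19, above both controls in both YZ9 libraries (0.70, SE 0.48, adjusted p = 0.620). Tigar, whose product breaks down fructose 2,6-bisphosphate, was at 21.4 and 24.8 CPM against 23.5 and 20.002.

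Of the phosphofructokinase subunits, Pfkl, the liver form, was at 103 and 76.3 CPM in controls and 148 and 137 with YZ9 (0.67, SE 0.31, adjusted p = 0.468). Pfkp, the platelet form, was at 186 and 154 CPM against 117 and 79.1 (-0.79, SE 0.23, adjusted p = 0.300), and its exons overlap those of Pitrm1 on the other strand. Pfkm, the muscle form, was at 29.6 and 21.8 CPM against 23.0 and 25.9. Pfkl and Pfkp had groups that did not overlap and opposite signs, and neither passed in edgeR or DESeq2. Over the 8 tested genes of the 10 in this list, DESeq2 and edgeR called 0, the median was -0.07 (-0.18 to 0.24 over the alternative settings), and 1 had an unadjusted p under 0.05.

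Other glycolysis enzymes differed less than 2-fold. The 18 tested glycolysis enzymes of 22 had a median log2 fold change of -0.13, or -0.065 without control replicate 1, and a range of -0.66 to 0.47; edgeR and DESeq2 called 0, and 1 had an unadjusted p under 0.05. Hk2, a hexokinase, was at 123 and 111 CPM in controls and 87.0 and 87.0 with YZ9 (-0.43, SE 0.15, adjusted p = 0.369). Ldha, which makes lactate, was at 723 and 714 CPM against 640 and 690 (-0.11, SE 0.33). The 12 genes of the hexosamine branch, which makes sugar donors for glycosylation, had a median of -0.05 (-0.19 to 0.077 over the settings) with 0 calls in either tool and 0 at an unadjusted p under 0.05; Gfpt1, its entry enzyme, was at 109 and 91.1 CPM against 90.1 and 88.0. The 11 tested pentose phosphate genes had a median of 0.24 and 0 calls; the median was 0.11 without YZ9 replicate 2 and 0.052 with sex as a covariate.

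Among transporters at the cell's surface, 2 were DESeq2 calls and the list as a whole had no steady direction. Of 14 tested members of 19, 8 lay above 0 and 6 below; the median was 0.20, and became -0.092 without YZ9 replicate 1, 0.018 with sex as a covariate, 0.12 without control replicate 2, 0.32 without control replicate 1 and 0.50 without YZ9 replicate 2. Slc2a3, the high-affinity glucose transporter of embryonic cells (ENSMUSG00000003153; chromosome 6, 122727809 to 122801640), was at 454 and 281 CPM in controls and 1400.3 and 1709.9 with YZ9 (2.08, SE 0.32, edgeR adjusted p = 0.135, DESeq2 adjusted p = 3.84e-07). Over the fits that left out 1 library its value ran from 1.77 to 2.46. Slc16a1, the main lactate and pyruvate transporter, was at 85.7 and 91.6 CPM against 147 and 195 (0.95, SE 0.18, DESeq2 adjusted p = 0.00145). Slc2a1, the glucose transporter of most tissues, was at 2065 and 1165 CPM against 2497 and 3345 (0.86, SE 0.39, adjusted p = 0.471), above both controls in both YZ9 libraries. DESeq2 called Slc2a3 and Slc16a1 higher and 0 members lower (1.05% and 2.45% of all genes tested), while Slc16a7 and Slc2a10 were separated and lower (-2.04 and -1.15). PD libraries were also above the controls in Slc2a3, at 1162 and 1933 CPM.

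**Figure D3:**
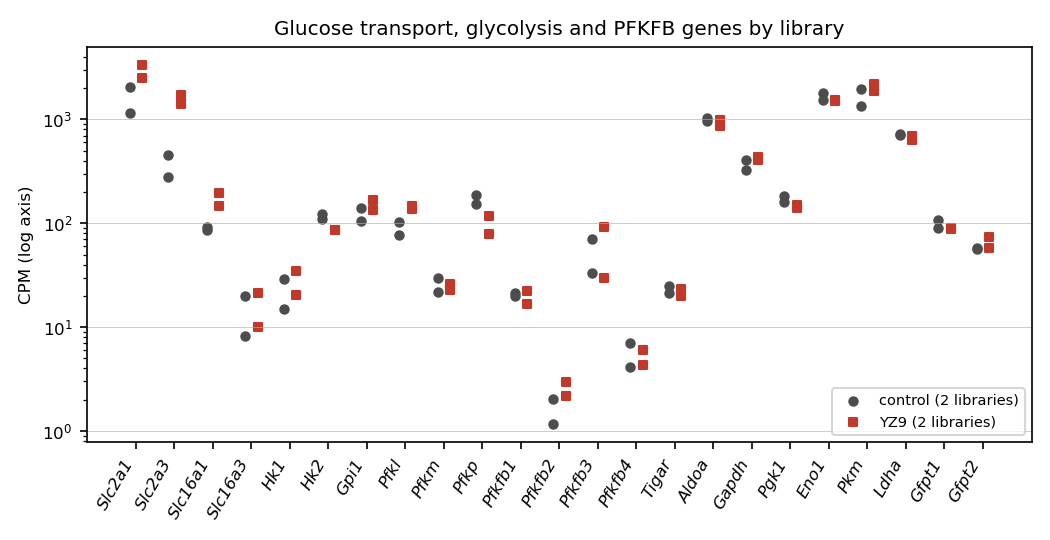
Level (CPM, log axis) of glucose and lactate transporters, hexokinases, phosphofructokinase subunits, PFKFB isoforms, Tigar, other glycolysis enzymes and the hexosamine entry enzymes, 1 mark per library: grey circles control, red squares YZ9. Slc2a3 shows the widest gap, from at most 454 in controls to at least 1400.3 with YZ9, and the Pfkfb3 marks of the groups interleave.

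Most mesenchymal genes lay lower with YZ9. After cells leave the streak they express matrix proteins, contractile proteins and factors that hold E-cadherin down. Of 34 genes of an epithelial-to-mesenchymal transition and migration list, 28 had a log2 fold change below 0, the median was -0.52, DESeq2 called 8 lower (2.45% of all genes tested) and 0 higher (1.05%), and edgeR called 0 with 16 lower at an unadjusted p under 0.05 (7.19%). The median was -0.79 without YZ9 replicate 1, -0.39 without YZ9 replicate 2 and -0.38 in the male libraries alone. Lox, which cross-links collagen, was at 9.62 and 6.15 CPM in controls and 0.715 and 0.572 with YZ9 (-3.61, SE 0.69, DESeq2 adjusted p = 1.51e-05). Myl9, a myosin light chain of contractile cells, was at 1158 and 1094 CPM against 438 and 173 (-1.88, SE 0.57, DESeq2 adjusted p = 0.0178). Zeb2, a repressor of E-cadherin, was at 113 and 112 CPM against 62.4 and 50.7 (-0.99, SE 0.17, DESeq2 adjusted p = 3.41e-04), and exons of Zeb2os overlap it on the other strand.

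The factors best known for this transition were not all lower. Snai1, which starts it in the streak, was at 25.1 and 12.5 CPM against 18.8 and 16.5, and Twist1 at 11.3 and 13.7 against 12.6 and 12.5. Zeb1 was at 64.3 and 59.2 CPM against 56.4 and 70.1, and Snai2 at 60.5 and 52.5 against 41.1 and 133. Cdh2, the N-cadherin that mesoderm gains, was at 273 and 185 CPM against 258 and 184. Vim, the filament protein of mesenchyme, was at 1281 and 1078 CPM against 850 and 546, and Fn1, fibronectin, at 1236 and 1106 against 925 and 631. Vim and Fn1 lay below both controls in both YZ9 libraries (-0.76 and -0.59) and passed neither tool.

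Most collagen and laminin genes, 19 of 26, had a log2 fold change below 0. Of the 26, 8 were separated and lower (7.10% of all genes tested) and 1 higher (4.69%), DESeq2 called 4 lower (2.45%) and 0 higher (1.05%), edgeR called 0, and the median was -0.39. That median became -0.92 without YZ9 replicate 1, -0.66 without control replicate 2, -0.22 without YZ9 replicate 2 and -0.19 without control replicate 1. Col3a1, the collagen of loose connective tissue, was at 294 and 257 CPM in controls and 60.4 and 22.5 with YZ9 (-2.73, SE 0.47, DESeq2 adjusted p = 5.71e-07). Col1a2 was at 278 and 280 CPM against 59.9 and 58.9 (-2.23, SE 0.51, DESeq2 adjusted p = 4.89e-04). Its partner chain Col1a1 was at 864 and 566 CPM against 507 and 120 (-1.19, SE 0.77, adjusted p = 0.597), and ran from -2.57 to -0.49 over the fits that left out 1 library. Basement membrane genes were closer to the controls, with Col4a1 at -0.21, Lamc1 at -0.24 and Lamb1 at -0.06. These collagens are counted in both lists.

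Most genes of an epithelial list lay higher. Of 24 genes of a list for definitive endoderm and its epithelium, 20 were tested and 16 lay above 0. Separated and higher were 10 (4.69% of all genes tested), and 0 were separated and lower (7.10%). The median was 1.45, and DESeq2 called 4 higher (1.05%) and 0 lower (2.45%). edgeR called 0, with 9 higher at an unadjusted p under 0.05 (4.35%). Members near 0 in controls, such as Foxa2 and Foxa1, passed the count filter only through YZ9 and could only count as higher. The tested members summed to 919 and 592 CPM in controls and 1051 and 623 with YZ9, with groups that overlapped. The median was 0.84 without YZ9 replicate 1. Cdh1, E-cadherin, the junction protein that mesoderm cells lose, was at 1.83 and 3.79 CPM in controls and 112 and 30.6 with YZ9 (4.66, SE 0.92, edgeR adjusted p = 0.198, DESeq2 adjusted p = 7.48e-04). Epcam, an epithelial adhesion protein, was at 0.861 and 2.51 CPM against 38.3 and 17.5 (4.04, SE 0.97, DESeq2 adjusted p = 0.0166). Cldn7, a tight junction protein, was at 0.374 and 0.901 CPM against 25.4 and 9.63 (4.77, SE 1.05, DESeq2 adjusted p = 3.84e-06). Cldn6, a claudin of embryonic epithelia, was at 0.262 and 8.25 CPM against 199 and 75.4 (5.01, SE 1.53, DESeq2 adjusted p = 0.102). Replicate 1 of YZ9 was the higher of the 2 in all 4 genes, and both libraries exceeded both controls.

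Some regulators of the epithelial state were also higher in both YZ9 libraries than in both controls. Esrp1, which splices the epithelial forms of many mRNAs, had 1 and 6 control counts, and 249 and 127 with YZ9 (5.82, SE 1.02, DESeq2 adjusted p = 3.20e-07). Grhl2, a factor that maintains epithelia, had 0 and 14 counts against 114 and 93 (3.94, SE 1.18, DESeq2 adjusted p = 0.0179). Kdf1, of the epidermis, had 0 and 2 counts against 56 and 37, a ratio of 47.7 (95% counting interval 12.8 to 399). Elf3, an epithelial ETS factor, was at 0.412 and 0.225 CPM against 2.59 and 2.83 (3.07, SE 0.62, DESeq2 adjusted p = 0.00137). Esrp1 and Kdf1 were chosen after their values were seen. Esrp1, Grhl2, Kdf1 and Elf3 passed the count filter only through YZ9, so none could have been found lower in both YZ9 libraries.

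Factors specific to endoderm were low throughout. Foxa2 had 0 and 4 control counts, and 23 and 28 with YZ9 (DESeq2 adjusted p = 0.0158), and Sox17, which endothelium shares, was at 9.65 and 4.43 CPM against 21.6 and 7.95. The 8 fixed markers of definitive endoderm, 7 of them tested and Cer1 at 0 counts, summed to 13.9 and 12.4 CPM in controls and 177 and 62.8 with YZ9, most of it Cdh1 and Epcam. PD libraries summed to 161 and 44.2, so both inhibitor groups were above the controls. The 11 markers of visceral endoderm, with Apoa4 and Hnf4a at 0, summed to 16.5 and 25.2 CPM in controls and 10.1 and 12.2 with YZ9. Ctsh was the largest member of that sum, at 10.7 and 13.5 CPM against 5.00 and 4.65. Ectoderm markers summed to 5307 and 4667 CPM against 6276 and 5239, nearly all of it the keratins Krt8 and Krt18, which the controls also held, and Sox1 was at 0. Trophoblast markers summed to 306 and 169 CPM against 238 and 512, with Tpbpa at 0. Most of it was Hand1, which is also among the mesoderm markers, at 242 and 125 CPM against 179 and 458, followed by Gata3. Elf5, Ascl2 and Prl3d1 had at most 3 counts in a control or YZ9 library. Whether cells of another layer on an explant contribute to the epithelial difference was not tested.

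The start region of Epcam, a junction gene of this list, is shown with the E-box CAGGTG or its reverse complement CACCTG, the letters that Snail and ZEB repressors are known to bind, in capitals.
Epcam, chr17:87635729-87635978 (plus strand): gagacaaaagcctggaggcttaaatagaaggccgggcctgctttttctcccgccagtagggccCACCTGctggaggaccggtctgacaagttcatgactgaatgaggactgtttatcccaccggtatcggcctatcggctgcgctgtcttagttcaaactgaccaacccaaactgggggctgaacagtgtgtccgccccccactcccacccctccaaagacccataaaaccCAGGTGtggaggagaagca
Such letters stood in 5 of the 19 windows of the list's tested genes (26.3%), in 15.6% of windows of genes tested and in 17.2% of all windows.

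WNT feedback genes went in both directions, with more of them higher. Cells that receive a WNT signal switch on inhibitors and receptors of the same pathway, and these are used as its readout in the streak and nascent mesoderm. Of 23 tested genes of a list of 29, 16 lay above 0 and 7 below, 8 were separated and higher (4.69% of all genes tested were) and 0 lower (7.10%), DESeq2 called 4 higher (1.05%) and 1 lower (2.45%), and edgeR called 0. The list summed to 850 and 854 CPM in controls and 833 and 796 with YZ9, so its sum was not higher. The median log2 fold change was 0.37, which became 0.096 without YZ9 replicate 2, 0.21 without control replicate 2 and 0.60 without control replicate 1. Sp5, a direct target and repressor, was at 0.262 and 0.338 CPM in controls and 3.80 and 2.56 with YZ9 (3.38, SE 0.62, DESeq2 adjusted p = 0.00125). With 7 and 9 control counts, Sp5 passed the count filter only through YZ9. Axin2, part of the complex that destroys beta-catenin, was at 1.76 and 2.18 CPM against 8.13 and 6.47 (1.89, SE 0.35, DESeq2 adjusted p = 3.45e-04). Nkd1, an inhibitor inside the cell, was at 12.2 and 9.42 CPM against 27.9 and 23.4 (1.25, SE 0.32, DESeq2 adjusted p = 0.0166), and Tnfrsf19 at 8.64 and 5.25 against 26.0 and 13.6 (1.51, SE 0.46, DESeq2 adjusted p = 0.0492). These 4 were higher in both YZ9 libraries than in both controls.

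Other members of the WNT list differed in direction. Lgr5, a receptor for R-spondin, was at 2.54 and 3.41 CPM against 6.25 and 10.8, Rnf43, which removes WNT receptors, had a value of 2.13, and Notum, a secreted inhibitor, had 0 control counts, and 6 and 22 with YZ9. Lef1, a nuclear partner of beta-catenin, was at 65.2 and 46.3 CPM against 77.0 and 60.9, and Dkk1, a secreted antagonist, at 32.4 and 37.0 against 31.4 and 30.0. Lgr4, the relative of Lgr5, was the member DESeq2 called lower (-0.95).

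Sp5 had the largest value of the list, and its start region is shown with the TCF/LEF core CTTTGA in capitals; its reverse complement TCAAAG was searched as well.
Sp5, chr2:70474673-70474922 (plus strand): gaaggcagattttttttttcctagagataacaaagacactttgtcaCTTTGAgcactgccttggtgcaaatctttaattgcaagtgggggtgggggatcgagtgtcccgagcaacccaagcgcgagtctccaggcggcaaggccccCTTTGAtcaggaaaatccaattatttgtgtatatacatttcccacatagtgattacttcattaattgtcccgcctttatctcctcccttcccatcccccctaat
The core stood in 5 of the 26 windows of the list's tested genes (19.2%), in 10.6% of windows of genes tested and in 13.8% of all windows.

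**Figure D4:**
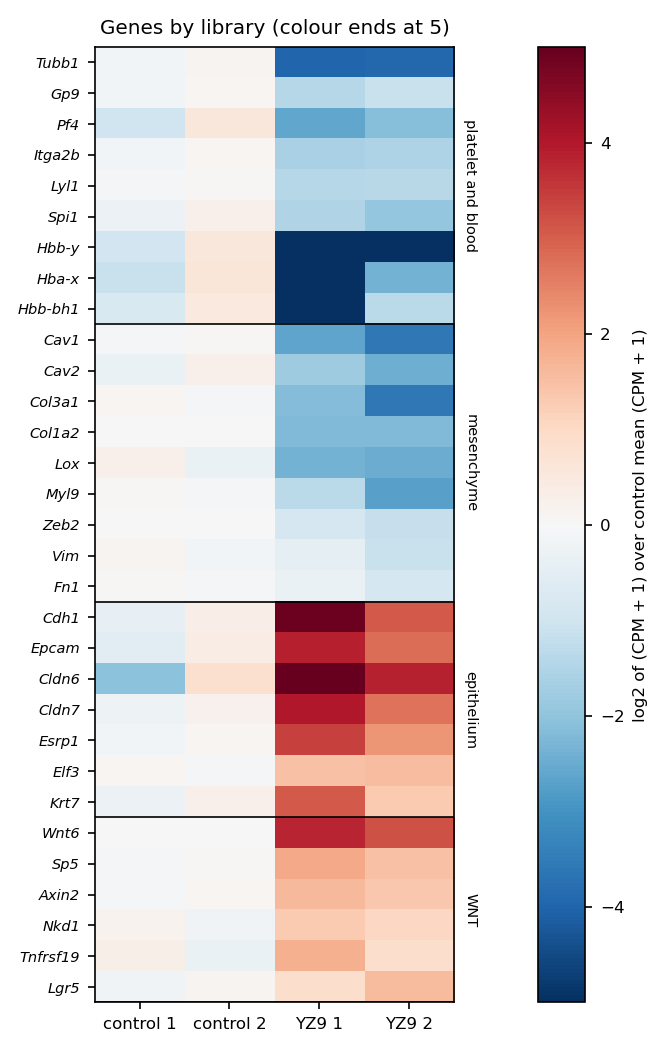
Colour gives log2 of (CPM + 1) over the mean of the controls (CPM + 1) for genes in rows, grouped as platelet and blood, mesenchyme, epithelium and WNT genes, with the 4 libraries in columns; the colour ends at 5 in either direction, and the genes were chosen after their values were seen. Blood genes differ most between the 2 YZ9 libraries (Hba-x at 2.77 and 627 CPM), and Tubb1, Col1a2 and Lox have nearly the same colour in both.

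Genes of position and of early mesoderm varied between the YZ9 libraries. Of 14 tested Hox genes of 31, which mark position along the body axis, 13 lay above 0 with a median of 1.40. Of the 14, 7 were separated and higher (4.69% of all genes tested) and 0 lower (7.10%), DESeq2 called 1 higher (1.05%), and edgeR called 0. Levels in controls were low, and any member near 0 there would pass the count filter only through YZ9 and could only count as higher. Hoxb1, the earliest of its cluster, was at 1.23 and 0.788 CPM in controls and at 6.34 in YZ9 replicate 1 and 45.5 in replicate 2 (4.68, SE 1.23, DESeq2 adjusted p = 0.0189). The value of Hoxb1 was between 2.65 and 5.50 over the fits that left out 1 library. Hoxb4 was at 2.81 and 2.89 CPM against 3.53 and 12.0, and Hoxb2 at 5.65 and 4.88 against 8.13 and 18.1. The Hox list summed to 34.6 and 24.3 CPM in controls and 44.0 and 142 with YZ9, so most of its difference lay in replicate 2; without that library the list's median was 0.28, and with sex as a covariate 0.15.

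Among streak genes, Mixl1 was at 3.48 and 1.46 CPM in controls and 0.938 and 11.0 with YZ9, and Eomes at 6.92 and 5.44 against 2.99 and 9.46, with groups that overlapped. Lefty2, an inhibitor of Nodal, was at 111 and 87.9 CPM against 56.3 and 4.48 (-1.71, SE 1.32). Inhba, the activin subunit, was at 41.5 and 46.7 CPM against 8.84 and 2.29 (-3.00, SE 0.83, DESeq2 adjusted p = 0.00209), and Fst, which binds activin, at 30.3 and 34.0 against 13.3 and 4.24 (-1.88, SE 0.50, DESeq2 adjusted p = 0.0118). Tbx3, a T-box factor of lateral mesoderm, was at 3.63 and 1.46 CPM against 17.4 and 34.3 (3.34, SE 0.62, DESeq2 adjusted p = 3.42e-06), with Tbx3os1 on the other strand. Jag1, a Notch ligand, was at 143 and 167 CPM against 50.3 and 29.4 (-1.96, SE 0.44, DESeq2 adjusted p = 0.00125).

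Among 28 heart genes DESeq2 called 1 lower and 0 higher, shares near those of all genes tested (2.45% and 1.05%). That gene, Sln, a regulator of the calcium pump, had 17 and 31 control counts and 0 with YZ9, at least 15.6-fold lower (DESeq2 adjusted p = 0.0452). Actc1, cardiac actin, was at 3304 and 2445 CPM against 1650.0 and 628 (-1.34, SE 0.53, adjusted p = 0.414). Nkx2-5, a heart factor, had a log2 fold change of 1.52. The list's median was -0.26 and took either sign over the settings (-0.62 to 0.46), and edgeR called 0 of its members.

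Sterol and fatty acid genes leaned upwards in small steps. Cells turn these sets of enzymes on together through SREBP factors when lipid runs low. Of 25 cholesterol genes 21 lay above 0, with a median of 0.40, 2 separated and higher (4.69% of all genes tested) and 0 lower (7.10%); edgeR and DESeq2 called 0, and 8 were higher (4.35%) and 1 lower (7.19%) at an unadjusted p under 0.05. Insig1, which holds SREBP in the endoplasmic reticulum, was a separated member (1.05). Of 19 fatty acid genes 18 lay above 0, with a median of 0.40, or 0.26 without control replicate 2. Acsl3, which activates fatty acids, was at 50.3 and 57.4 CPM in controls and 104 and 113 with YZ9 (1.01, SE 0.19, DESeq2 adjusted p = 7.61e-04). It was the 1 member that DESeq2 called higher (1.05% of all genes tested), with 0 called lower (2.45%). Of the 19, 2 were separated and higher (4.69%) and 0 lower (7.10%).

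Targets of p53 leaned the other way. Of 30 genes 25 lay below 0, with a median of -0.32; DESeq2 called 5 lower (2.45% of all genes tested) and 0 higher (1.05%), edgeR called 0, and without YZ9 replicate 2 the median was -0.14. Fas, a death receptor, was at 47.6 and 56.3 CPM in controls and 25.2 and 21.2 with YZ9 (-1.16, SE 0.20, DESeq2 adjusted p = 1.82e-04). Btg2, an inhibitor of proliferation, was at 447 and 599 CPM against 200 and 191 (-1.42, SE 0.31, DESeq2 adjusted p = 0.00318). Eda2r was at 184 and 191 CPM against 108 and 81.0 (-0.99, SE 0.18, DESeq2 adjusted p = 0.00145), and Pmaip1, a trigger of apoptosis, at 283 and 378 against 157 and 153 (-1.09, SE 0.30, DESeq2 adjusted p = 0.0429). Mdm2, the inhibitor of p53, and Bax had values of -0.42 and -0.32. Genes of replication and of mitosis, 28 each, had medians of 0.05 and 0.05, which took either sign over the settings (-0.12 to 0.17 and -0.20 to 0.32), and 0 calls in either tool.

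Most respiratory genes lay slightly below 0. The 9 tested genes of the mitochondrial genome all had values below 0, from -0.57 to -0.10, with a median of -0.26 and 0 calls in either tool, alongside the smaller mitochondrial share of counts. mt-Nd1 was at 1151 and 1186 CPM in controls and 904 and 912 with YZ9 (-0.36, SE 0.12, adjusted p = 0.355). Nuclear genes of the respiratory chain had a median of -0.13, with 33 of 36 below 0 and 0 calls; it became -0.018 without control replicate 2 and -0.27 without control replicate 1. The 50 ribosomal protein genes had a median of -0.07 (-0.16 to 0.0022 over the settings), and 22 unfolded protein response genes one of -0.29 (-0.15 without YZ9 replicate 1). Of these 22, DESeq2 called 1 lower (2.45% of all genes tested) and 0 higher (1.05%). That gene was Dnajb9, a chaperone (-0.69, SE 0.16, DESeq2 adjusted p = 0.0133). Hypoxia genes, 25 in number, had a median of 0.16 (-0.053 to 0.26 over the settings) and 0 calls.

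ERK targets lay near the controls in YZ9 replicate 1 and lower in replicate 2. Their median log2 fold change was -0.66 without YZ9 replicate 1 and 0.092 without YZ9 replicate 2. The list summed to 1839 and 1642 CPM in controls and 1683 and 1261 with YZ9. Of 31 genes 1 was separated and higher and 2 lower, shares near those of all genes tested (4.69% and 7.10%), the median was -0.11 (-0.66 to 0.13 over the settings), and edgeR and DESeq2 called 0, with 3 lower at an unadjusted p under 0.05 (7.19%). Dusp6, the phosphatase of ERK, was at 240 and 226 CPM in controls and 233 and 100 with YZ9, against 4.41 and 1.13 with PD. Spry4 was at 23.6 and 26.2 CPM against 16.9 and 9.63 (-0.91, SE 0.35, adjusted p = 0.413), and had 0 counts in both PD libraries (YZ9 minus PD, edgeR adjusted p = 0.0280).

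**Figure D5:**
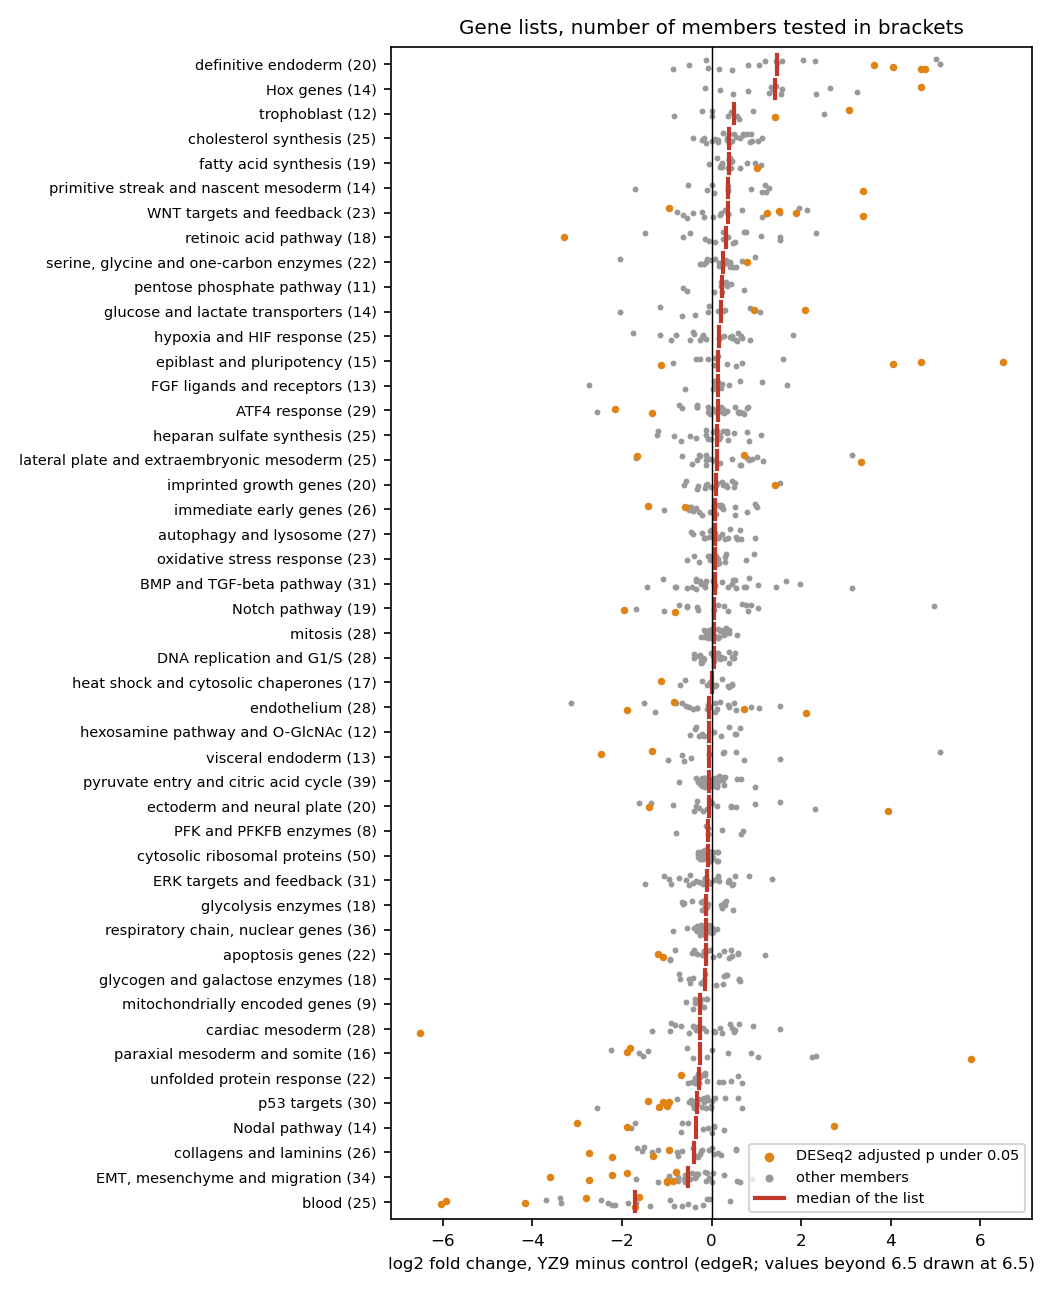
Log2 fold change of YZ9 minus control (edgeR) for every tested member of the gene lists, ordered by their median (red bar), without the sex-linked reference genes, which are not drawn; orange points passed DESeq2, and the vertical line is the median of all genes. Of the lists drawn, blood lies lowest (median -1.71), then mesenchyme (-0.52), and the definitive endoderm and Hox lists lie highest (1.45 and 1.40).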

How the data were processed

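Polyadenylated RNA of 6 mesoderm explant samples (2 control, 2 PD, 2 YZ9) was analysed, grouped by the treatment label. Per the submitters' processing notes the authors used CASAVA 1.8.2, STAR 2.7.9a, DESeq2 1.40.1 and the build GRCm38. How reads were counted, and with which annotation release, is not given in the sources used here. Per the file headers, the deposited tables hold whole-number counts per gene and library, and the values of the 2 control columns are identical in both tables. The deposited normalized columns are a signal, counts divided by 1 size factor per library. The authors' deposited log2 fold changes and their standard errors, test statistics (a score) and p-values were not used, except for the number of genes past the threshold.

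Genes with at least 10 counts in at least 2 of the 4 control and YZ9 libraries were scaled by TMM and compared in R 4.3.3 with edgeR 4.0.16 (glmQLFit, glmQLFTest, 2-sided), all 6 libraries in 1 fit, with Benjamini-Hochberg adjustment over the 15003 genes and a threshold of 0.05. The fitted common dispersion came to 0.0951. Standard errors were derived from the fold change and its F statistic. DESeq2 1.42.0 was run on the same genes. Counts of 3 or fewer over a group gave a bound (0 counts) or a ratio with an exact 95% interval; floors and intervals cover counting error only. The scripts were tested on simulated data, where DESeq2 held more false calls than its threshold states and edgeR missed most of the 2-fold changes. Total counts were 21253194 to 27810161 per library; between replicates, the chi-square statistic of a gene averaged 53.6 in controls and 60.2 with YZ9 (1 if replicates differed by counting error alone). Symbols are those of the tables (4282 of 46078 genes had none), positions are GENCODE M21 for the 45229 matching IDs, and the library kit keeps no strand.

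The genes, lists and tests were chosen with earlier results of these data known. Named genes were those past the threshold in edgeR, the 8 of smallest p in each direction (mean count at least 50 in the higher group, groups apart, named, off chromosome Y), a fixed set around glycolysis and mesoderm, and the 2 of smallest p in each of 48 lists; further names for group description were taken from these lists or outside them after their values were seen. Lists are described by counts and medians, with no test. Values of some list members are not reported here. The labels give the same replicate numbers in each group without saying that they pair samples, so they were not taken as pairs. Deviations of same-numbered libraries correlated at 0.36 (control and YZ9), -0.15 (control and PD) and 0.41 (PD and YZ9), which does not settle whether they pair. Alternatives covered scaling, filters, tools, libraries left out, sex, and the replicate number.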

Additional observations from a re-analysis of the deposited data

How the results depend on the processing

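The number of genes called in YZ9 against control depended on the tool, the filter and single libraries. edgeR called 1 gene with DESeq2 size factors, filterByExpr, a mean count of at least 50, the newer quasi-likelihood fit, a log2 fold of at least 1 or X and Y genes left out, and limma-trend called 1. It called 5 with the 4 libraries alone, 122 with sex as a covariate, 567 in the male libraries alone (where the lone YZ9 library is assumed to vary like the other groups) and 556 with no filter on low counts. DESeq2 called 526, or 598 on the 4 libraries alone and 583 on these with no filter, and the authors' deposited table lists 586. A replicate block, the replicate number as a term, gave 2 calls. Leaving out 1 library gave 0 to 8 genes; the fits without YZ9 replicate 1, YZ9 replicate 2, control replicate 1 and control replicate 2 each called 0, with 1252, 1145, 1671 and 786 genes at an unadjusted p under 0.05, and those without PD replicate 1 and PD replicate 2 called 8 and 7. Against PD, where the count was 19, DESeq2 called 531, limma-trend 34, edgeR 601 with no filter, 485 in the male libraries alone and 179 with sex as a covariate, and 12 with the replicate number as a block. Leaving out 1 library gave 0 to 23 calls against PD, with 10 without PD replicate 2, 1 without YZ9 replicate 1, 2 without YZ9 replicate 2 and 0 without either control (1441 and 1439 genes at an unadjusted p under 0.05). The DESeq2 fits on 4 libraries and the male libraries were added after the data were seen, and the cause of these differences was not tested.

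Of 119 named genes, 109 kept their sign in every alternative and 10 did not; the values of these 10 in the comparison lay between -0.48 and 0.33. In the male libraries alone the log2 fold change was 0.039 for Tigar, -1.03 for Eomes, 0.19 for Cdh2, 0.018 for Snai1 and 0.020 for Dusp6. With sex as a covariate it was 0.093 for Tigar, -1.04 for Eomes, 0.0048 for Cdh2 and 0.14 for Dusp6. For Eomes it was -0.20 by limma-trend and -0.19 with the replicate block. Over the fits that left out 1 library the values ran from -0.28 to 0.12 for Pfkfb1, -0.79 to 0.87 for Pfkfb3, -0.45 to 0.31 for Pfkfb4, -0.28 to 0.16 for Pfkm, -0.20 to 0.027 for Tigar and -0.081 to 0.89 for Hk1. They ran from -1.04 to 0.63 for Eomes, -0.31 to 0.25 for Cdh2, -0.51 to 0.49 for Snai1 and -1.21 to 0.0073 for Dusp6. Of 48 list medians 25 kept their sign throughout, among them those of the blood, mesenchyme, collagen, definitive endoderm, Hox, WNT, cholesterol, fatty acid and p53 lists; those of the PFKFB, glucose transporter, ERK, cardiac and endothelial lists did not. Replicates of a group differed by more than counting error; how far depth limits the calls was not tested.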
